A study of Bos taurus with 8 samples.

Results

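The secreted WNT antagonists are proteins that cells release to limit WNT signalling at the cell surface, and 10 of their genes were followed here: DKK1, DKK2, DKK3, DKK4, SFRP1, SFRP2, SFRP4, SFRP5, FRZB and WIF1. The 10 genes were chosen with earlier results of these data known. Their probes were taken without regard to signal, as every gene-directed probe on the array whose gene name or accession belongs to one of these genes. That gave 20 probes for the 10 genes, out of 51282 probes and 16910 named genes on the array. RNA from 8 samples had been hybridised, one sample to each one-colour Agilent bovine array. Of these, 4 are labelled Pregnant (described as after pregnancy) and 4 are labelled Non pregnant (described as before pregnancy). All 8 share the remaining labels, which give Bos taurus, female sex and fetal cotyledon, the fetal side of the placental attachment sites of ruminants. The protocol text names gravid uteri of slaughtered buffalo as the source, so buffalo RNA may have been read with cattle probes, and no animal age or stage of gestation is given. Whether the replicates are separate animals is not stated, and p-values then reflect the spread among these 8 samples alone, whose small number limits their precision.

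WNT ligands bind Frizzled receptors together with the coreceptors LRP5 and LRP6, and the canonical branch of the pathway then stabilises beta-catenin, which acts with TCF and LEF factors on target genes. Antagonists work at 2 points of this chain. The SFRP proteins, FRZB (also known as SFRP3) and WIF1 bind the WNT ligands themselves, the SFRP group through a domain that resembles the ligand-binding part of a Frizzled. The Dickkopf proteins DKK1, DKK2 and DKK4 bind LRP5 and LRP6 instead, and with Kremen proteins can remove these coreceptors from the membrane, while DKK3 is a divergent relative that does not act this way. In cattle, DKK1 is known as a protein secreted by the endometrium that can act on the early embryo.

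Probe sequences of the genes on which the results turn are printed here as the scanner files give them, 5′ to 3′, because each value below is the signal of such a probe. Lower case is used throughout, and capitals mark a match to AATAAA or ATTAAA, the hexamers that precede the cleavage and polyadenylation site of many messenger RNAs. For the printed DKK1 and WIF1 probes the whole 60 bases are shown, and for the others a 30-base stretch (bases 31 to 60, or 1 to 30 for SFRP2). The DKK1 probe with the highest mean signal is not printed, and its 60 bases are placed on 55 bases of the genome. Coordinates are those of the files, on the cattle build Btau_3.1, and no source used here says which part of the gene (exon, intron or UTR) a probe covers.
DKK1 at chr26:7003779-7003838, minus strand: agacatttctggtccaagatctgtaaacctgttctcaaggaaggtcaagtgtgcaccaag
DKK1 at chr26:7003647-7003706, minus strand: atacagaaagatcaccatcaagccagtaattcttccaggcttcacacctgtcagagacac
DKK4 at chr27:39634475-39634534, minus strand: aaatttaggttcatctagtgattcagttag
DKK3 at chr15:39669149-39669208, plus strand: atcatgtatgcatccagagttATTAAAtgt
SFRP4 at chr4:51752397-51752456, minus strand: acctgatatgtgcattgaaaAATAAAtgcc
SFRP4 at chr4:51752728-51752787, minus strand: aacccaaaacaagcgtgagctaactgcttt
SFRP1 at chr27:38624484-38624543, minus strand: cttgactaaaatcactcaattaatcagtgg
SFRP2 at chr17:4164379-4164438, plus strand: tgcagATTAAAccattgtagcttacctgta
FRZB at chr2:14118056-14118115, plus strand: cactttatcatttggatttgtgctgtttaa
WIF1 at chr5:52701871-52707762, plus strand: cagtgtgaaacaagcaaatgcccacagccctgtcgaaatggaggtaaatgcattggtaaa

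No 2 probes of different antagonists shared a run of more than 9 bases. Probes were compared only with each other, so a match of a probe to the transcript of another gene was not tested. GC content of the 20 probes ran from 35% to 55%. One of the hexamers was present in 3 of the 20 probes, for DKK3, SFRP4 and SFRP2, and on the given strand in 11.51% of all 51282 probes (AATAAA in 8.35% and ATTAAA in 3.33%), against 5.44% for their reverse complements TTTATT and TTTAAT. The WIF1 probe covers 5892 bases of the genome with its 60 bases.

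Throughout, a level is the log2 processed intensity of a probe minus the 75th percentile of its array, and a difference is the mean level of the 4 arrays labelled Pregnant minus that of the 4 arrays labelled Non pregnant. Levels of different probes depend on the probe and are not set against each other. The 75th percentile itself lay at an intensity of 798 to 1347 on the arrays labelled Pregnant and 1168 to 1797 on those labelled Non pregnant, a log2 difference of -0.48 (two-sided exact permutation p = 0.0857, where 4 against 4 arrays cannot go below 0.0286). Over all probes, levels correlated at 0.943 to 0.989 among the arrays labelled Pregnant, at 0.957 to 0.987 among those labelled Non pregnant and at 0.736 to 0.783 between the groups. Pregnant array 4 stood apart, at 0.943 to 0.951 with the other Pregnant arrays, which among themselves reached 0.977 to 0.989.

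The labelled tissue was set against marker genes, and these go against the group labels. All 8 tested trophoblast markers (pregnancy-associated glycoproteins, placental lactogen and others) were lower on the arrays labelled Pregnant, and PLAC1 was not well above background on any of them. The log2 of the mean trophoblast marker level was -3.71 to -1.83 on the arrays labelled Pregnant and 6.05 to 6.68 on those labelled Non pregnant. Here and for the other marker lists the mean was taken over unlogged levels, so the brightest genes of a list weigh most. Markers of endometrial stroma ran the other way, with 4 of 4 tested genes higher, at 1.57 to 3.42 on the arrays labelled Pregnant and -2.27 to -1.72 on those labelled Non pregnant, where ESR1 and HOXD10 were not well above background on any array. Leukocyte markers were higher for 4 of 5 genes (2.83 to 4.03 on Pregnant arrays, 0.38 to 1.60 on Non pregnant arrays), and erythroid globins lower for 4 of 4 (-2.98 to -0.57 on Pregnant arrays, 6.39 to 7.23 on Non pregnant arrays). The groups are therefore named only by their labels. In a bulk sample, fewer cells of a type and less RNA per cell cannot be told apart, and the part of cell composition in any difference below was not tested.

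All 10 antagonist genes had at least 1 probe that could be tested, 17 of the 20 in all. With limma and Benjamini-Hochberg adjustment over all tested probes, 7 of the 10 genes passed an adjusted p of 0.05, against 62.8% of the 13196 genes tested, so the count as such is near the background of this comparison. They divided by direction: SFRP4, DKK3, SFRP1 and WIF1 were higher on the arrays labelled Pregnant (4 of 10, against 29.9% of all genes), and DKK4, DKK1 and SFRP2 were lower (3 of 10, against 32.9%). The same 7 genes were the ones whose groups of 4 arrays did not overlap, 4 of them higher and 3 lower, against 60.3% of all genes (28.4% higher and 31.9% lower). The same 7 also differed at least 2-fold, against 48.2%. The size of the changes varied widely: DKK4, DKK1 and SFRP4 differed more in fitted size than 99.9%, 99.5% and 99.3% of all tested genes, while SFRP5 exceeded 1.03% of them. The median difference was 0.14 over the 10 genes and -0.03 over all genes. Without Pregnant array 4, 8 genes were called, FRZB being the added one.

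**Figure D1:**
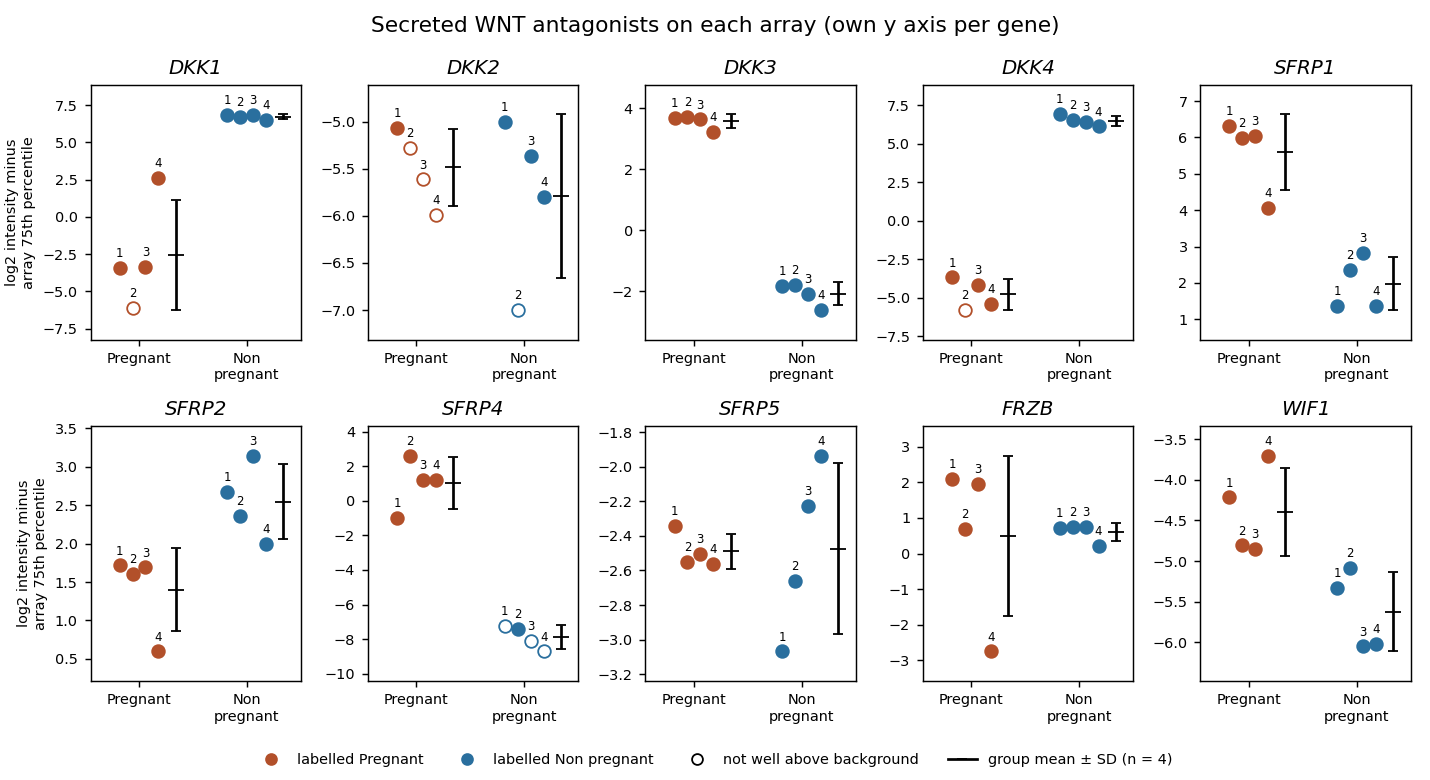
Level of each antagonist gene (log2 intensity minus the array's 75th percentile, each panel with its own axis) on the arrays labelled Pregnant (left) and Non pregnant (right), with the array number above each point, open points where the probe was not well above background, and the mean ± SD of 4 arrays. DKK1 and DKK4 lie below 3 on every Pregnant array and above 6 on every Non pregnant array, SFRP4, DKK3 and SFRP1 lie higher on the Pregnant arrays, and Pregnant array 4 is apart from the other 3 for DKK1, SFRP1, SFRP2 and FRZB.

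Among the coreceptor-binding antagonists, DKK4 showed the largest difference of the 10 genes. Its probe read -3.69, -5.82, -4.18 and -5.41 on Pregnant arrays 1 to 4, against 6.90, 6.54, 6.41 and 6.12 on Non pregnant arrays 1 to 4. The 4 Non pregnant arrays were close together and far above all Pregnant arrays, on one of which, array 2, the probe was not well above background. On average the level was -4.78 ± 1.004 on the Pregnant and 6.49 ± 0.33 on the Non pregnant arrays (SD, 4 arrays each), a difference of -11.27 (SE 0.46, adjusted p = 3.54e-07), which is 2471-fold lower on the arrays labelled Pregnant. As processed intensity before scaling, the same probe gave 17.2 to 61.7 on the Pregnant arrays and 106109 to 145249 on the Non pregnant arrays. With normexp background correction, here with an offset of 50 added to every intensity, the difference was -9.74. Such an offset by itself shrinks differences that involve dim signals, here and in the normexp values below.

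DKK1, the founding Dickkopf protein and an inhibitor of LRP5 and LRP6, followed the same direction with far more spread. The probe with the highest mean signal, at chr26:7003261-7003315, read -3.45, -6.08, -3.38 and 2.64 on the Pregnant arrays, against 6.86, 6.71, 6.82 and 6.52 on the Non pregnant arrays. Pregnant array 4 lay between the other Pregnant arrays and the Non pregnant group, and array 2 was not well above background. Group means of -2.57 ± 3.69 for Pregnant and 6.73 ± 0.15 for Non pregnant arrays (SD, 4 arrays each) gave a difference of -9.30 (SE 1.53, adjusted p = 0.000764). That is 628-fold lower on the arrays labelled Pregnant, a size that rests on single arrays: the difference was -11.03 without Pregnant array 4 and -8.12 without Pregnant array 2. With normexp background correction it was -8.23, and in all 3 cases it stayed past the threshold.

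The other DKK1 probes, whose sequences are printed above, have their lowest coordinates 386 and 518 bases away and gave the same picture. The probe at chr26:7003647-7003706 read -3.90, -6.01, -3.44 and 2.27 on the Pregnant arrays and 6.66, 6.49, 6.58 and 6.33 on the Non pregnant arrays (difference -9.29, SE 1.47). The probe at chr26:7003779-7003838 read -4.53, -6.82, -4.19 and 2.07 on the Pregnant arrays and 6.53, 6.63, 6.46 and 6.42 on the Non pregnant arrays (difference -9.88, SE 1.58). With all 3 probes high on Pregnant array 4, the raised DKK1 signal of that sample is not that of a single probe. On the same array DKK4 was at -5.41, the trophoblast markers were at their lowest among the Pregnant arrays (-3.71) and the erythroid globins at their highest (-0.57), and the part of either in the DKK1 value was not tested.

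DKK3, the divergent member, went the opposite way. Its single probe read 3.69, 3.72, 3.63 and 3.23 on the Pregnant arrays, against -1.82, -1.80, -2.08 and -2.63 on the Non pregnant arrays. Each group was tight and no array came near the other group. The Pregnant arrays averaged 3.57 ± 0.23 and the Non pregnant arrays -2.08 ± 0.39 (SD over 4 arrays), a difference of 5.65 (SE 0.24, adjusted p = 4.06e-07), or 50.3-fold higher on the arrays labelled Pregnant.

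DKK2, which depending on context can inhibit LRP6 or activate it, was dim on every array. The tested probe at chr6:19721299-19721358 read -5.07, -5.28, -5.61 and -5.99 on the Pregnant arrays and -5.00, -7.00, -5.36 and -5.80 on the Non pregnant arrays. It was well above background on 1 Pregnant and 3 Non pregnant arrays, and the groups overlapped. The difference of 0.31 had a 95% confidence interval of -0.65 to 1.26 (SE 0.42, adjusted p = 0.553). The second DKK2 probe, 129673 bases away at chr6:19591626-19591685, was not well above background on any array and was not tested.

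Among the antagonists that bind WNT ligands, SFRP4 differed most. Its probe at chr4:51752397-51752456 read -0.97, 2.63, 1.22 and 1.24 on the Pregnant arrays, against -7.26, -7.39, -8.13 and -8.71 on the Non pregnant arrays, of which only array 2 was well above background. Pregnant array 1 was the low one of its group and still far from the Non pregnant arrays. On average the level was 1.03 ± 1.49 on the Pregnant and -7.87 ± 0.68 on the Non pregnant arrays (SD, 4 arrays each), a difference of 8.90 (SE 0.69, adjusted p = 8.82e-06), or 478-fold higher on the arrays labelled Pregnant. That fold is set against a group mostly at background: with values not well above background raised to the lowest signal of a probe well above background on the array, it was 310-fold. The size depends on the processing: the difference was 9.57 without Pregnant array 1, 7.56 as the median over both SFRP4 probes and 5.29 with normexp background correction, past the threshold each time.

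The second SFRP4 probe starts 331 bases away, at chr4:51752728-51752787, and kept the order of the Pregnant arrays at a lower signal. It read -4.48, -0.76, -2.12 and -1.64 on the Pregnant arrays, against -8.30, -8.62, -8.15 and -8.77 on the Non pregnant arrays, none of which was well above background. Its change is therefore given against the array floor: the probe was 32.3-fold higher on the arrays labelled Pregnant. That fold sets the Pregnant mean of -2.25 against the higher, per array, of the probe's own signal and the lowest signal of any probe well above background. It is not a strict lower bound, since a probe not well above background can read above that lowest signal. DKK4 did so on Pregnant array 2, at -5.82 against -6.06. The Non pregnant mean as measured was -8.46, and the adjusted p of the fit was 6.75e-05.

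SFRP1, a WNT-binding antagonist that can also bind Frizzled receptors, was higher at all 3 of its probes. The probe with the highest mean read 6.31, 5.996, 6.03 and 4.05 on the Pregnant arrays, against 1.37, 2.35, 2.83 and 1.37 on the Non pregnant arrays. Pregnant array 4 was the low one of its group, and the groups did not overlap. Group means of 5.60 ± 1.04 for Pregnant and 1.98 ± 0.73 for Non pregnant arrays (SD, 4 arrays each) gave a difference of 3.62 (SE 0.54, adjusted p = 0.000446), or 12.3-fold higher on the arrays labelled Pregnant.

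The other SFRP1 probes repeat this at lower signals. The one whose lowest coordinate is 19 bases away is placed on only 21 bases of the genome for its 60 bases. That probe read 2.27, 2.42, 2.56 and 0.74 on the Pregnant arrays and -2.24, -1.38, -0.30 and -1.64 on the Non pregnant arrays, a difference of 3.39 (SE 0.51, adjusted p = 0.000429). The one 2529 bases away, at chr27:38627013-38627072, read 3.096, 2.05, 2.10 and 1.02 on the Pregnant arrays and -3.36, -2.28, -1.75 and -3.18 on the Non pregnant arrays, a difference of 4.71 (SE 0.49, adjusted p = 5.06e-05). Without Non pregnant array 3 and Pregnant array 4 together, the difference of the first probe was 4.42. SFRP1 and DKK4 both map to chromosome 27 and differed in opposite directions.

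SFRP2 was the SFRP gene that was lower, and by a small amount. Its probe at chr17:4164379-4164438 read 1.72, 1.61, 1.69 and 0.60 on the Pregnant arrays, against 2.68, 2.36, 3.15 and 1.9997 on the Non pregnant arrays. The highest Pregnant array was only slightly below the lowest Non pregnant array. The Pregnant arrays averaged 1.40 ± 0.54 and the Non pregnant arrays 2.55 ± 0.49 (SD over 4 arrays), a difference of -1.14 (SE 0.33, adjusted p = 0.0159), or 2.21-fold lower on the arrays labelled Pregnant.

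The second SFRP2 probe, 137 bases away, widened the gap. It read 0.70, 0.59, 0.60 and -0.37 on the Pregnant arrays and 2.12, 1.85, 2.61 and 1.61 on the Non pregnant arrays, a difference of -1.67 (SE 0.31, adjusted p = 0.00156). Both probes thus put SFRP2 lower, with Pregnant array 4 lowest of all arrays.

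SFRP5 did not pass the test. Its probe at chr26:20380935-20380994 was well above background on all arrays and read -2.34, -2.55, -2.51 and -2.56 on the Pregnant arrays and -3.07, -2.66, -2.23 and -1.94 on the Non pregnant arrays. The Pregnant arrays lay inside the range of the Non pregnant ones. The difference was -0.02, with a 95% confidence interval of -0.60 to 0.56 (SE 0.26, adjusted p = 0.960). The second SFRP5 probe, at chr26:20381239-20381298, was not well above background on any array.

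FRZB turned on 1 array. Its probe at chr2:14118056-14118115 read 2.09, 0.70, 1.95 and -2.75 on the Pregnant arrays, against 0.73, 0.76, 0.74 and 0.22 on the Non pregnant arrays. Pregnant arrays 1 and 3 were above all Non pregnant arrays, array 2 was among them and array 4 was far below. On average the level was 0.50 ± 2.25 on the Pregnant and 0.61 ± 0.26 on the Non pregnant arrays (SD, 4 arrays each), a difference of -0.11 with a 95% confidence interval of -2.26 to 2.04 (SE 0.95, adjusted p = 0.927). Without Pregnant array 4 the difference was 0.97 (adjusted p = 0.0431), which would count as higher.

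The second FRZB probe, at chr2:14117191-14117250, had the same low value on Pregnant array 4. It read 0.83, -0.29, 0.71 and -2.74 on the Pregnant arrays and 0.41, 0.41, 0.60 and 0.13 on the Non pregnant arrays, a difference of -0.76 (SE 0.70, adjusted p = 0.373). The low FRZB of that sample is therefore seen with both probes. Fibroblast and endometrial stroma markers were also at their lowest among the Pregnant arrays on array 4, at 5.69 and 1.57, and their part in the FRZB value was not tested.

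WIF1, which binds WNT through its own WIF domain, was dim and modestly higher. Its probe read -4.22, -4.81, -4.85 and -3.70 on the Pregnant arrays, against -5.33, -5.09, -6.05 and -6.03 on the Non pregnant arrays, and was well above background on all 8. The groups did not overlap but came within a small step of each other. Group means of -4.39 ± 0.55 for Pregnant and -5.63 ± 0.49 for Non pregnant arrays (SD, 4 arrays each) gave a difference of 1.23 (SE 0.34, adjusted p = 0.0117), or 2.35-fold higher on the arrays labelled Pregnant. The call was lost with median scaling (0.84, adjusted p = 0.0729), quantile normalization (0.74, adjusted p = 0.105) and no scaling (0.75, adjusted p = 0.154), and also without Non pregnant array 3 and Pregnant array 4 together (0.86, adjusted p = 0.0516). The second WIF1 probe was well above background on 1 Pregnant and 2 Non pregnant arrays and was not tested.

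**Figure D2:**
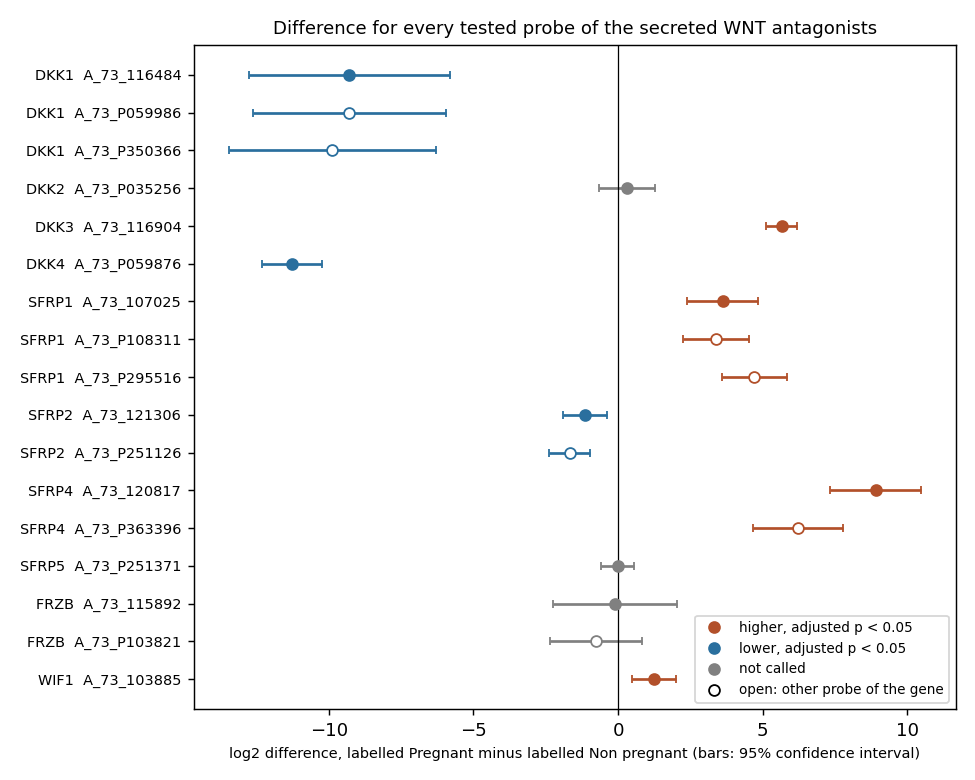
Difference of each of the 17 tested antagonist probes (log2, labelled Pregnant minus labelled Non pregnant, points with 95% confidence intervals). All 3 DKK1 probes and DKK4 lie near -10, both SFRP4 probes, DKK3 and all 3 SFRP1 probes lie above 3, and the intervals of DKK2, SFRP5 and both FRZB probes include 0.

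Where a gene had several tested probes, they gave the same call: 3 of 3 for DKK1, 3 of 3 for SFRP1, and both probes for SFRP2, SFRP4 and FRZB. The spread between Pregnant arrays differed in size by gene. DKK1 had an SD of 3.69 and FRZB of 2.25 in that group, against 0.23 for DKK3 and 0.10 for SFRP5, while on the Non pregnant arrays the SDs of all 10 genes lay between 0.15 and 0.87. Pregnant array 4 had the highest DKK1 and WIF1 of its group and the lowest DKK2, DKK3, SFRP1, SFRP2, SFRP5 and FRZB.

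**Figure D3:**
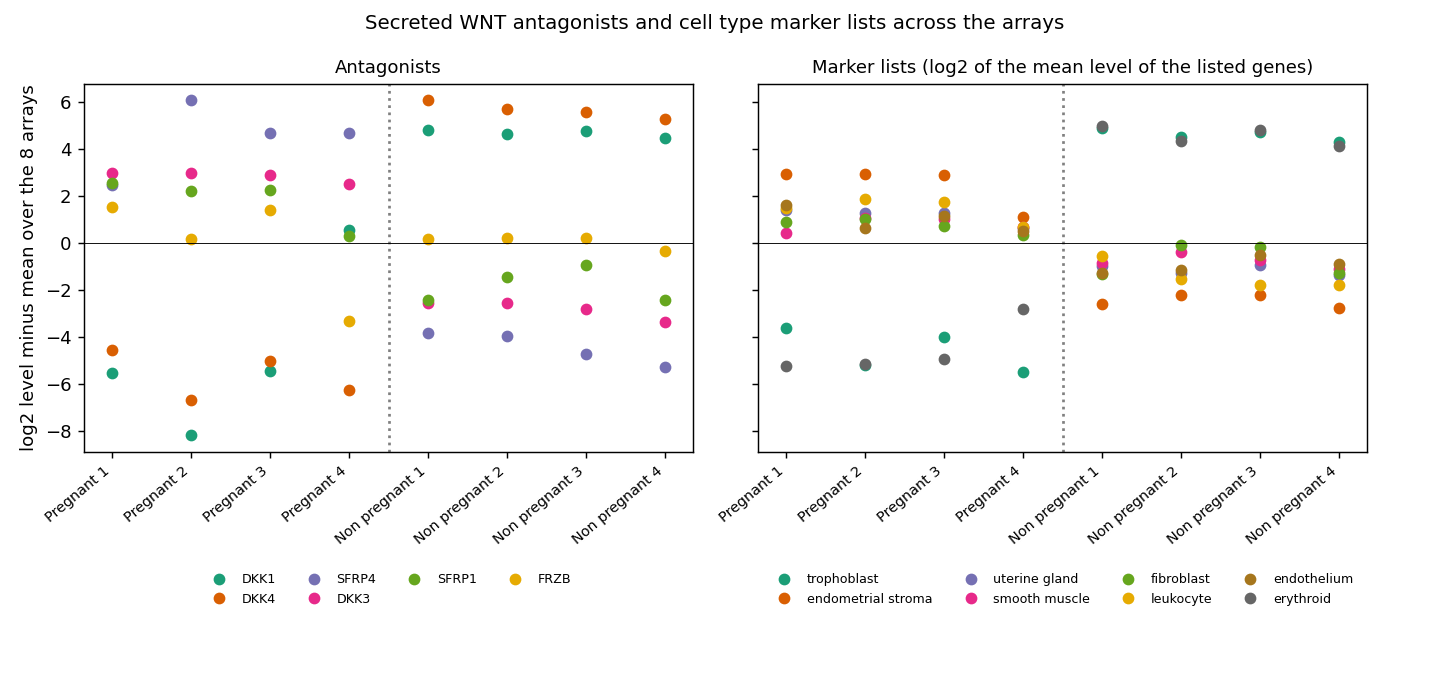
Level of 6 antagonist genes (left) and log2 of the mean level of each marker list (right) on each array, each centred on its mean over the 8 arrays, Pregnant arrays left of the dotted line and Non pregnant arrays right of it. On Pregnant array 4, DKK1 is raised and FRZB and SFRP1 are low relative to the other Pregnant arrays, stromal markers are low and erythroid markers high.

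The remaining marker lists moved as follows beside these genes. Smooth muscle markers were higher for 4 of 6 genes (log2 of the mean level 2.14 to 2.74 on Pregnant arrays, 0.58 to 1.31 on Non pregnant arrays), fibroblast markers for 4 of 6 (5.69 to 6.37 against 4.04 to 5.25) and endothelial markers for 2 of 4, with 1 lower (1.42 to 2.53 against -0.35 to 0.39). Of the 5 uterine gland markers, 2 were higher and 1 lower (4.45 to 5.23 against 2.47 to 2.90). Since bright genes weigh most in these ranges, the median difference over genes can be smaller, at 0.33 for the gland and 1.33 for the fibroblast list. Between the groups, the antagonists higher on the arrays labelled Pregnant had the direction of the stromal, muscle and leukocyte lists. DKK1, DKK4 and SFRP2 had that of the trophoblast and erythroid lists. With only 2 groups, any gene that differs shares its direction with one or other of these lists. The part of these cell types in the antagonist values was not tested.

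For DKK4, DKK1 and SFRP4, the genes with the nearest pattern over the 8 arrays were identified by the root-mean-square distance between centred levels. Levels were not scaled, so with 2 groups this distance depends largely on the size of the group difference. A near gene is therefore mainly one with a difference of like size. DKK4 was nearest to PAGE4 (distance 0.18, difference -11.11) and SULT1E1, an estrogen sulfotransferase (0.24, difference -11.48). DKK1 had no near neighbour of that kind: the 2 nearest, LOC132342103 and SSLP1, were at 1.17 and 1.22, with differences of -7.53 and -8.98. SFRP4 was nearest to MFAP5, a protein of the microfibrils of connective tissue (0.75, difference 7.77), and to GPM6B, a membrane glycoprotein (0.95, difference 7.81).

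The rest of the WNT pathway was read from lists of genes by role. Of 72 such genes with a tested probe, 47 were called, 21 higher and 26 lower on the arrays labelled Pregnant, shares near those of all genes (62.8% called, 29.9% higher and 32.9% lower). The counts of each list are to be read against the same background.

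Among the ligands that the SFRP proteins and WIF1 bind, 10 of 19 listed genes could be tested, of which 3 were higher and 3 lower, with a median difference of -0.31. WNT10B was lower by the widest margin, at -9.38 (SE 0.41, adjusted p = 4.93e-07). WNT8B was higher at 4.84 (SE 0.50, adjusted p = 4.49e-05) but well above background on only 1 Non pregnant array, and at 4.24 with dim values raised as for SFRP4. In the same direction, WNT5B, which signals mainly without beta-catenin, was well above background on no Non pregnant array. With dim values raised in that way, WNT5B was 13.0-fold higher. WNT11 was lower at -1.77 (SE 0.31). With normexp background correction the fitted differences were smaller, at -8.11 for WNT10B, 1.97 for WNT8B, 1.68 for WNT5B and -0.84 for WNT11, each still past the threshold.

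Of the receptors, 16 of 20 were tested, with 6 higher, 4 lower and a median of 0.09. The 2 coreceptors that DKK1, DKK2 and DKK4 bind went in opposite directions: LRP6 was higher at 1.89 (SE 0.41, adjusted p = 0.0037) and LRP5 lower at -1.29 (SE 0.18, adjusted p = 0.000272), although only 1 of the 2 other LRP5 probes was called, in the same direction. KREMEN1, the Dickkopf receptor, had no tested probe. LGR5, a receptor for R-spondins, was higher at 5.76 (SE 0.61), with 1 Non pregnant array well above background, 6.43 without Pregnant array 4 and 3.23 with normexp background correction. Also higher were FZD1 at 3.88 (SE 0.33) and ROR2, a receptor of the branch without beta-catenin, at 3.75 (SE 0.45). FZD4 was lower at -5.47 (SE 0.24), and its other tested probes ran from -7.12 to -3.02.

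R-spondins strengthen WNT signalling by protecting Frizzled and LRP from removal, the opposite effect to that of a Dickkopf. Of 3 tested genes in their list, 2 were lower, RSPO3 at -5.98 (SE 0.76) and RSPO1 at -3.47 (SE 0.42). RSPO3 rests on 7 arrays, since the spot of Pregnant array 3 had an outlier flag, and only 2 of its Pregnant values were well above background. Its difference was -4.88 without Pregnant array 1, -6.61 without Pregnant array 4, -4.76 in the deposited table and -4.18 with normexp background correction, past the threshold each time. Other extracellular inhibitors were tested for 7 of 12 names, with 2 higher, 4 lower and a median of -1.03. That median is the value of IGFBP4, named here after its values were seen, whose other tested probe was called the opposite way at 2.02. TPBG, a membrane protein known in zebrafish as a WNT inhibitor, was higher at 4.88 (SE 0.32), as was APCDD1, a membrane inhibitor, at 2.70 (SE 0.45). The other tested TPBG probe was at 3.03. SOSTDC1, which binds LRP6, was lower at -3.02 (SE 0.60), as was TRABD2B, a protease that cuts WNT, at -1.93 (SE 0.36), both well above background on 1 Pregnant array. With normexp background correction SOSTDC1 was at -0.85 and TRABD2B at -0.27, the call of TRABD2B being lost (adjusted p = 0.296). The part of the added offset of 50 in these drops was not tested.

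**Figure D4:**
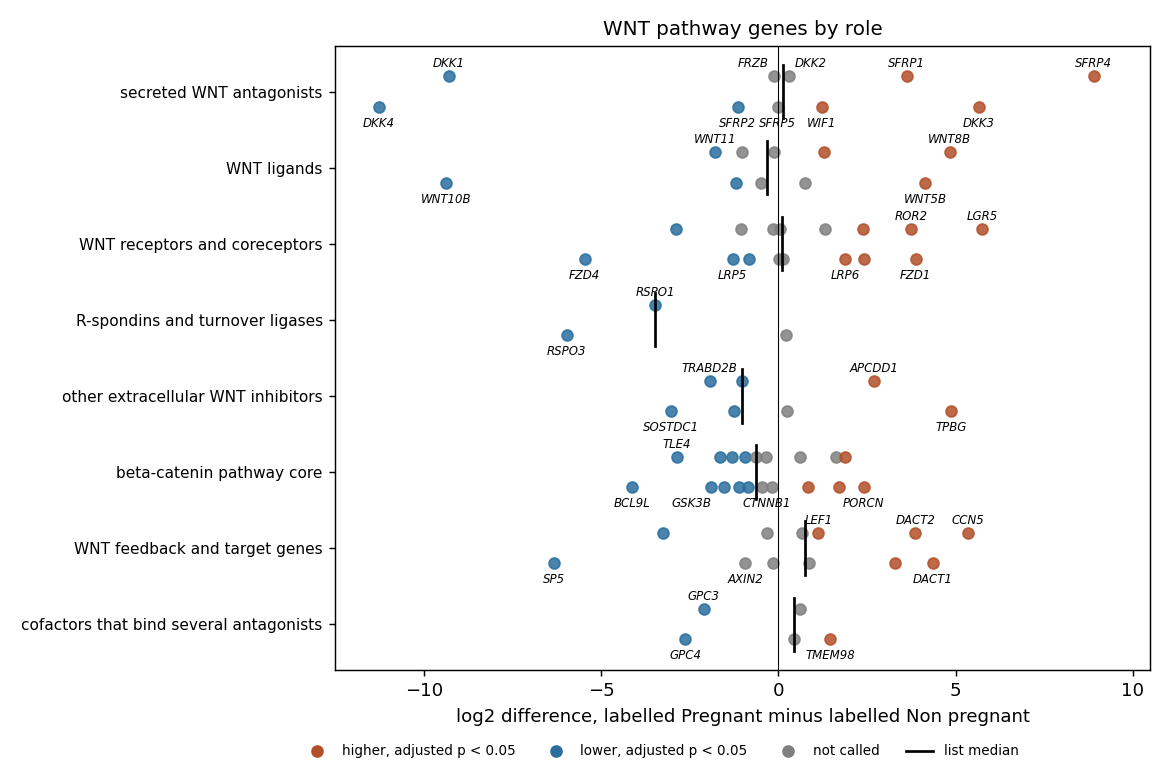
Difference of every tested gene of the antagonist list and of 7 WNT pathway lists (log2, labelled Pregnant minus labelled Non pregnant), coloured by call, with the median of each list as a black bar. DKK4, DKK1 and WNT10B lie furthest to the left and SFRP4 furthest to the right, while most genes of the beta-catenin core lie between -3 and 3.

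In the cell interior, the differences were smaller than those of DKK4, DKK1 and SFRP4, the antagonists that differed most. They were not smaller than those of all antagonists, since BCL9L (-4.13) differed more than SFRP1 (3.62). In the beta-catenin core 19 of 22 genes were tested, 4 were higher and 9 lower, and the median was -0.62. CTNNB1, which encodes beta-catenin, was lower at -1.10 (SE 0.23, adjusted p = 0.00321), with its 3 other probes called in the same direction, although with quantile normalization it was -0.58 and not called (adjusted p = 0.0683). BCL9L, a coactivator of beta-catenin, was lower at -4.13 (SE 0.21), but only at -1.79 at its other tested probe. TLE4, a corepressor, was lower at -2.87 (SE 0.31), but was at -0.70 and not called at its other probe. The kinase GSK3B was lower at -1.90 (SE 0.18). PORCN, the enzyme that attaches the lipid WNT ligands need, was higher at 2.40 (SE 0.20).

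Feedback and target genes of the pathway were called higher in 5 of 12 tested genes and lower in 2, with a median of 0.76. AXIN2, a widely used readout of canonical signalling, was at -0.93 (SE 0.40, adjusted p = 0.0738) and did not pass the test. LEF1 was higher at 1.13 (SE 0.22, adjusted p = 0.00215), as were CCN5 at 5.35 (SE 0.21), DACT1 at 4.36 (SE 0.34) and DACT2 at 3.86 (SE 0.66), the DACT proteins being partners of Dishevelled. SP5, a transcription factor induced by WNT in many tissues, was lower at -6.34 (SE 0.56), well above background on 2 Pregnant arrays, and at -4.67 with normexp background correction. The other tested SP5 probe was at -3.23. Without Pregnant array 4, DACT2 was at 3.102 and SP5 at -6.94. AXIN2 was called lower with median scaling (-1.31, adjusted p = 0.0113) and no scaling (-1.41, adjusted p = 0.0247), and LEF1 was not called with no scaling (0.65, adjusted p = 0.0921). Among 5 genes listed as cofactors of the antagonists, GPC4 and GPC3, cell-surface proteoglycans, were lower at -2.63 (SE 0.72) and -2.10 (SE 0.66), and TMEM98 was higher at 1.46 (SE 0.19). Without Pregnant array 4, GPC4 was at -1.82. GPC3 lost its call without any one of Pregnant array 4, Non pregnant array 2 and Non pregnant array 3, at -1.76, -1.61 and -1.81 (adjusted p = 0.0506, 0.0516 and 0.0595).

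**Figure D5:**
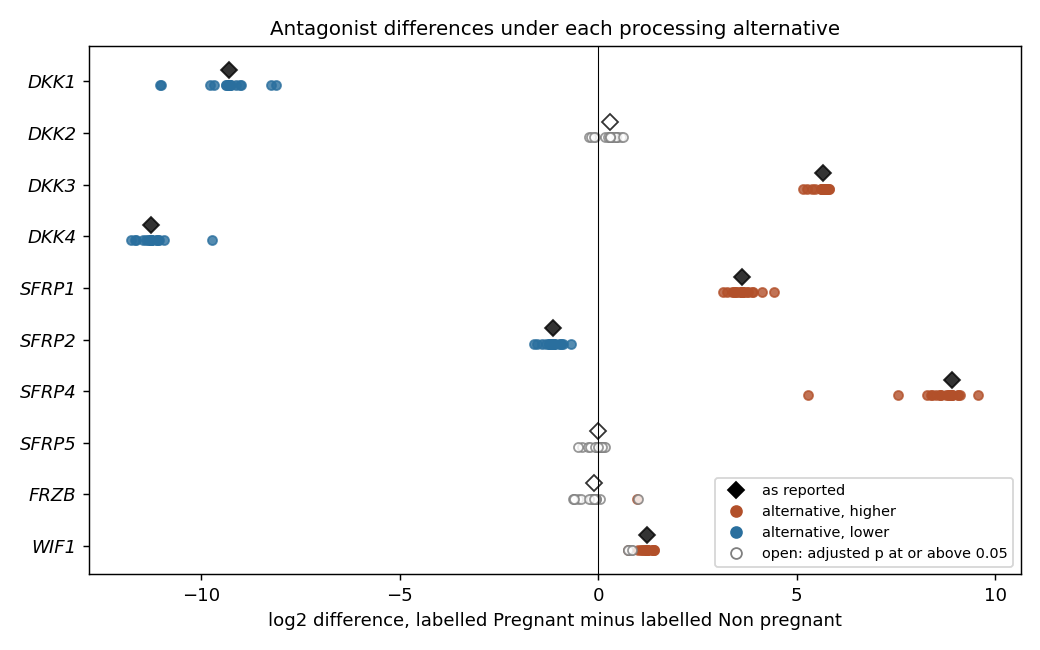
Difference of each antagonist gene (log2, labelled Pregnant minus labelled Non pregnant) as reported (diamonds) and under each processing alternative (circles), open where the adjusted p was 0.05 or above. DKK4, DKK1, SFRP4, DKK3, SFRP1 and SFRP2 kept their direction and call under every alternative that tested them, WIF1 lost its call under 4, and FRZB gained one under 1. The filter that required a probe well above background on all arrays did not test DKK4, DKK1, SFRP4 or DKK2.

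Across the alternatives that tested them, 20 or 21 per gene, the called antagonists kept their directions. DKK4 ranged from -11.76 to -9.74, DKK1 from -11.03 to -8.12, SFRP4 from 5.29 to 9.57, DKK3 from 5.17 to 5.82, SFRP1 from 3.13 to 4.42 and SFRP2 from -1.63 to -0.68, each past the threshold every time. WIF1 ranged from 0.74 to 1.41 and passed in 17 of 21, while DKK2 and SFRP5 passed in none.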

How the data were processed

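Total RNA of 8 samples was labelled with Cy3 from an oligo-dT primer and hybridised to one-colour arrays, per the labels' protocols. Each array was deposited as scanner output whose intensity per spot comes, per the file headers, from Agilent Feature Extraction 11.5.1.1 (protocol GE1_1105_Oct12), with background subtracted and no scaling between arrays. Flags for outlier, saturated and well-above-background spots come from the same deposited files. A deposited table of log2 values served as an alternative. It correlated at 0.999 or above with log2 intensity of the same array and has a 75th percentile near 0. Its column medians were -3.56, -3.61, -3.64 and -3.61 for Pregnant and -4.21, -4.01, -4.00 and -3.77 for Non pregnant arrays, and no centring per probe was seen. This scale and centring are inferred from its values, and no source used here states them.

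For the values given here, 1319 control spots per array and 119 outlier spots were left out, no spot was saturated, spots of a probe were averaged, and log2 intensity minus the array's 75th percentile was taken. A probe counted as well above background with at least 0.5 of its spots so marked, and 34627 probes above background on at least 4 of 8 arrays were tested with limma 3.58.1 (R 4.3.3) by lmFit and eBayes without covariates, at a Benjamini-Hochberg threshold of 0.05 over all tested probes. For each gene, the tested probe of highest mean over all arrays was used. Gene names came from the files and RefSeq cattle gene names of assembly ARS-UCD2.0: 28112 probes matched by accession, 1770 by another accession, 5520 by symbol and 149 by synonym, while 15726 kept the file's name and 5 matched several genes. All arrays shared 1 slide and 1 scan time. Besides all 10 antagonists, the text names per pathway list at most the 4 called genes with the largest difference, and CTNNB1, LRP5, LRP6, KREMEN1, AXIN2 and LEF1. For DKK4, DKK1 and SFRP4, which differed most, it names the 2 nearest genes. The antagonists, lists and alternatives were chosen with earlier results of these data known. Alternatives covered background correction, scaling, probe filters, the deposited table, probe choice, a replicate block, eBayes settings and leaving out arrays, and, added after the data had been seen, raising dim values to the array floor and leaving out Non pregnant array 3 with Pregnant array 4. The normexp background correction was run with an offset of 50.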

Additional observations from a re-analysis of the deposited data

Results flagged for a closer look

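Of 115 groups of 4 arrays examined, covering every antagonist probe, the named pathway genes, the 6 genes nearest in pattern and 2 array measures, 12 held 1 array far from the other 3 by Dixon's test at the 95% level, which by chance marks about 1 in 20 groups. Pregnant array 4 was that array in 8 of the 12. Among the antagonists, Pregnant array 4 read 4.05 for SFRP1, where the other 3 averaged 6.11, and 0.74 at the second SFRP1 probe, where they averaged 2.42. For SFRP2 it read 0.60 (others 1.67) and -0.37 at the second probe (others 0.63). For FRZB the distant array was Non pregnant array 4, at 0.22 where the other 3 averaged 0.74. Among pathway genes, Pregnant array 4 read -0.092 for ROR2 (others 1.53), 5.72 for TPBG (others 6.59), 1.41 for DACT1 (others 2.41) and 3.07 for DACT2 (others 0.03). Pregnant array 1 read 2.38 for GSK3B (others 2.56) and -1.34 for LEF1 (others -1.88), and Non pregnant array 2 read 1.71 for TMEM98 (others 1.21).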

How the results depend on the processing

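The count of called antagonists was 7 and ranged from 6 to 8 over the alternatives, except for the filter that required a probe well above background on all 8 arrays, where 6 of the genes could be tested and 4 were called, 3 higher and 1 lower. DKK4, DKK1 and SFRP4, which differed most, and DKK2 could not be tested under that filter. Leaving out 1 array gave 7 to 8 called antagonists, 7446 to 8462 of all genes and 45 to 50 of the pathway genes. Without both Non pregnant array 3 and Pregnant array 4, chosen after seeing the data, 6 antagonists were called, and with dim values raised to the array floor, also added later, 7 were, with 8314 of all genes and 47 pathway genes. Deviations of same-numbered arrays correlated at 0.009, 0.075, 0.050 and 0.155, and those of differently numbered arrays at -0.113 to 0.0485. Whether the replicate numbers pair the samples cannot be told from these small values, and no label states it. With the number as a replicate block, 7 antagonists, 8046 of all genes and 50 pathway genes were called.

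Among the antagonists, signs turned only for the 3 genes that did not pass the test. DKK2 was -0.080 with median scaling, -0.22 with quantile normalization, -0.18 with no scaling and -0.097 without Non pregnant array 2, and leaving out 1 array gave -0.097 to 0.57. SFRP5 was 0.068 with normexp background, 0.15 with the percentile over probes detected on all arrays, and 0.003, 0.008, 0.06, 0.16 and 0.089 without Pregnant array 2, Pregnant array 4, Non pregnant array 3, Non pregnant array 4, and Non pregnant array 3 with Pregnant array 4. FRZB was 0.051 with the percentile over detected probes, 0.97 without Pregnant array 4 (-0.64 to 0.97 on leaving out 1 array) and 1.01 without Non pregnant array 3 and Pregnant array 4. IGFBP4 was not followed over the alternatives. Of the other named pathway genes with a tested probe, none turned sign. TRABD2B, GPC3, CTNNB1 and LEF1 lost a call and AXIN2 gained one, as given with their values. The cause was not tested.

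Scaling and the filter moved the balance of directions: 47.6% of called genes were higher as reported, 34.9% with median scaling, 31.7% with no scaling and 55.4% of 9739 called with no filter on dim probes, and the median of all genes was -0.03, -0.41, -0.51 and 0.23 in these, and 0.14 with the percentile over detected probes. Low signal limits DKK2, the dim group of SFRP4, DKK4 and DKK1, and WIF1.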
